A study of Arabidopsis thaliana with 6 samples.

Results

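The genes of the immune MAP kinase cascades of Arabidopsis thaliana are described here in 4 leaf RNA-seq libraries. They are 10 of the 22183 genes in the deposited tables, chosen by name, with earlier results of these data known: the mitogen-activated protein kinases (MAPKs) MPK3 (AT3G45640), MPK4 (AT4G01370), MPK6 (AT2G43790) and MPK11 (AT1G01560), the MAPK kinases (MAPKKs) MKK1 (AT4G26070), MKK2 (AT4G29810), MKK4 (AT1G51660), MKK5 (AT3G21220) and MKK9 (AT1G73500), and the MAPKK kinase (MAPKKK) MEKK1 (AT4G08500). Leaves came from 4-week-old plants in the Columbia-0 (Col) background, grown in short days and sprayed with water or with 300 µM 2,6-dichloroisonicotinic acid (INA), a synthetic analog of salicylic acid (SA), 12 h before harvest. Col is the wild type treated with water, and Col+INA the wild type treated with INA. npr1-1+INA is the INA-treated npr1-1 mutant, which carries a missense allele of NPR1, the SA-dependent transcriptional coactivator. hac1/5+INA is the INA-treated hac1-2 hac5-2 mutant, with mutant alleles of the histone acetyltransferase genes HAC1 and HAC5. Each condition has 1 library, made from the pooled RNA of 3 experiments. Water-treated npr1-1 and hac1/5 were not analysed here, so a genotype difference that was present before INA cannot be told apart from a different response to INA.

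A MAPK cascade is a relay of protein kinases in which a MAPKKK phosphorylates a MAPKK, which in turn phosphorylates a MAPK on the threonine and the tyrosine of its activation loop. In Arabidopsis leaves, receptors of microbial patterns switch on one branch through MKK4 and MKK5 to MPK3 and MPK6, which promotes defense gene expression, ethylene synthesis and camalexin, and another branch through MEKK1, MKK1 and MKK2 to MPK4. Plants that lack MPK4, or MKK1 and MKK2 together, are dwarfed and accumulate SA, since the immune receptor SUMM2 guards this branch. RNA-seq measures the transcripts of these kinases and says nothing of their phosphorylation.

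The site that MAPKKs phosphorylate is encoded in all 4 MAPK genes. It is shown as the 45 coding bases around the codons for threonine, glutamate and tyrosine of the activation loop (capitals), on the plus strand of TAIR10.1 from RefSeq, at chr3:16757757-16757801 for MPK3, chr4:568189-568233 for MPK4, chr2:18139880-18139924 for MPK6 and chr1:203408-203452 for MPK11.
MPK3: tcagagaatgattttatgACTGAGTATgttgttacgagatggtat
MPK4: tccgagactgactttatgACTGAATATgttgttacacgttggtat
MPK6: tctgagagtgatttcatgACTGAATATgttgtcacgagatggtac
MPK11: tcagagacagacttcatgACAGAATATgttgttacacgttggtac
Gene pairs with related roles were aligned, since a read that matches both genes of a pair could be counted for either. Aligned coding bases were identical at 85.7% of positions for MPK4 and MPK11, at 82% for MKK4 and MKK5, and at 70.4% both for MPK3 and MPK6 and for MKK1 and MKK2. The longest run of bases shared by a pair was 31 for MPK4 and MPK11, 40 for MKK4 and MKK5, 14 for MPK3 and MPK6, and 27 for MKK1 and MKK2. Since the authors' alignment allowed 2 mismatches, a read longer than these runs could also match both genes. How the authors counted reads that match both genes of a pair is not given in the sources used here. Its effect was not tested, neither on the low counts of MPK11, MKK1 and MKK2 nor on the contrasts of MKK4 with MKK5 below.

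The reads on gene models summed to between 6698569 and 7146973 in the 4 libraries. HAC5 had 272 reads for Col, 122 for Col+INA, 248 for npr1-1+INA and 2 for hac1/5+INA, whereas HAC1 had 28 reads for Col+INA and 25 for hac1/5+INA, so its reads do not check the label. NPR1 had between 286 and 1476 reads, and a missense allele leaves its reads no check of npr1-1. The leaf label was checked with the photosynthesis genes RBCS1A, CAB1 and RCA, which had at least 2690 reads in every library, while the root gene PYK10 had at most 20. CAB1 alone took from 0.719% of the reads in Col+INA to 2.71% in Col, and the part of such abundant leaf transcripts in the ratios below was not tested. In bulk leaves, fewer cells of a type and less RNA per cell cannot be told apart. With 1 library per condition no difference has a replicate check: reads of 2 libraries were compared by a two-sided exact binomial test, a comparison of libraries rather than of conditions, and 95% intervals (Clopper-Pearson) cover counting error only. A gene was called higher or lower at an FDR of at most 0.01 (Benjamini-Hochberg over all gene models) and a log2 ratio of at least 1 in size, that is, a 2-fold difference.

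Levels are given in RPKM, the reads scaled to the length of the gene model and to the sum of the library. The MAPKs MPK3, MPK4 and MPK6 were the most abundant transcripts of the cascade in all 4 libraries, MEKK1, MKK4, MKK5 and MKK9 followed, and MPK11, MKK1 and MKK2 stayed below 4 RPKM. In Col, MPK3 stood at 70.8 RPKM, 1.30 times (1.17 to 1.45) MPK6 at 54.3 RPKM, while MPK6 and MPK4 at 49.3 RPKM were not distinguishable (ratio 1.10, 0.977 to 1.24). In Col+INA the order was MPK3 at 194 RPKM, MPK4 at 160 RPKM and MPK6 at 111 RPKM, with each step larger than counting error. In npr1-1+INA, MPK4 led at 73.2 RPKM, 1.49 times (1.33 to 1.68) MPK3 at 49.1 RPKM, and MPK3 was not distinguishable from MPK6 at 46.3 RPKM (ratio 1.06, 0.935 to 1.20). In hac1/5+INA, MPK3 at 216 RPKM and MPK4 at 198 RPKM were close (ratio 1.09, 1.03 to 1.16), and MPK6 lay 2.35-fold (2.18 to 2.54) under MPK4 at 84.2 RPKM. Among the MAPKKs, MKK5 exceeded MKK4 in Col by 1.48 times (1.20 to 1.84), whereas the pair was not distinguishable in Col+INA (MKK4 over MKK5 1.09, 0.977 to 1.21) or in hac1/5+INA (1.04, 0.935 to 1.17).

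**Figure D1:**
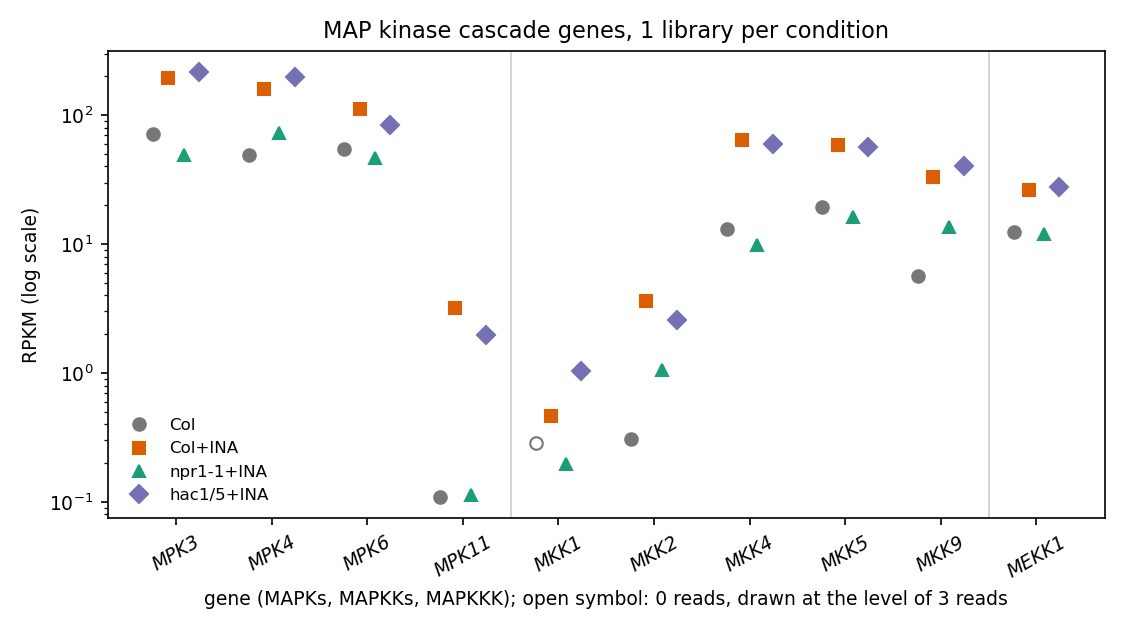
Level of the 10 cascade genes (RPKM, log scale) in the 4 libraries, 1 symbol per library, with no error bars since each condition had 1 library. For MPK3, MPK4, MKK4, MKK5, MKK9 and MEKK1 the Col+INA (square) and hac1/5+INA (diamond) symbols lie together above those of Col (circle) and npr1-1+INA (triangle). The open circle marks MKK1 in Col, which had 0 reads and is drawn at the level of 3 reads.

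Whether INA raised the transcripts of the cascade in the wild type was examined by setting Col+INA against Col. Of the 10 genes, 9 were called higher in Col+INA and 0 lower, with MKK1 as the gene that was not called. Of all 21105 genes tested, 13.9% were called higher and 8.49% lower. The median log2 ratio of the 10 genes was 1.65, with the 0 reads of MKK1 in Col set to 3, against 0.10 over all genes tested. Since MPK6 and MEKK1 lay just past the 2-fold threshold, both fell under it when the libraries were scaled by edgeR's TMM factors (log2 ratios 0.89 and 0.95) or by DESeq2's size factors (0.88 and 0.93), leaving 7 genes called. edgeR's exact test called 7 higher with the coefficient of variation between libraries assumed to be 0.2 and 0 with 0.4. Of all 21105 genes it called 1609 higher with 0.2 and 403 with 0.4.

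The entry kinase MEKK1 (chromosome 4, 5403753 to 5407301, minus strand, 8 coding exons) had 212 reads for Col, 464 for Col+INA, 199 for npr1-1+INA and 481 for hac1/5+INA. The 4 libraries thus fell into a low pair, Col and npr1-1+INA, and a high pair, Col+INA and hac1/5+INA. The ratio of Col+INA to Col was 2.12 (1.80 to 2.51). MEKK1 lies beside its close relatives MEKK2 (5387652 to 5391507), whose overexpression is known to trigger the SUMM2 pathway, and MEKK3 (5383852 to 5387058). MEKK2 had 137, 312, 147 and 370 reads in the same order, 2.21-fold (1.80 to 2.72) above Col in Col+INA. MEKK3 had 95, 898, 154 and 836 reads, 9.15-fold (7.40 to 11.4) above Col in Col+INA. In RPKM, MEKK3 lay below MEKK1 in Col (7.30 against 12.3) and above it in Col+INA (66.8 against 26.1), so the order of these neighbours was reversed between both wild-type libraries. Reads that match several of these neighbours were not examined.

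**Figure D2:**
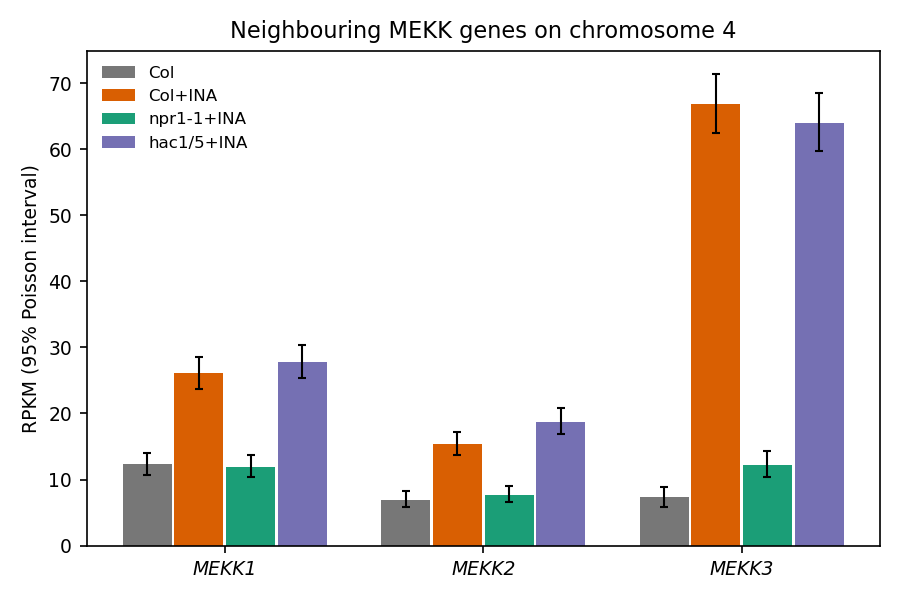
Level (RPKM, linear scale from 0) of the neighbouring genes MEKK1, MEKK2 and MEKK3 in the 4 libraries, with exact Poisson 95% intervals that cover counting error only. MEKK3 rises from 7.30 RPKM in Col to 66.8 RPKM in Col+INA, while MEKK1 goes from 12.3 to 26.1 RPKM and MEKK2 from 6.98 to 15.4 RPKM.

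Among the MAPKKs of the MPK3 and MPK6 branch, MKK4 (chromosome 1, 19154323 to 19155947, plus strand, 1 coding exon) had 147 reads for Col, 739 for Col+INA, 107 for npr1-1+INA and 670 for hac1/5+INA. Its partner MKK5 (chromosome 3, 7445757 to 7447351, plus strand, 1 coding exon) had 214, 668, 174 and 630 reads. Both INA-treated libraries other than npr1-1+INA were high for either gene, and npr1-1+INA had the fewest reads of the 4. Col+INA exceeded Col by 4.87-fold (4.07 to 5.85) for MKK4 and by 3.02-fold (2.59 to 3.54) for MKK5. The intervals of these partners did not overlap. MKK9 (chromosome 1, 27639091 to 27640529, minus strand, 1 coding exon), which also activates MPK3 and MPK6 and is known for its part in ethylene signaling and senescence, had 56 reads for Col, 338 for Col+INA, 131 for npr1-1+INA and 402 for hac1/5+INA. Its libraries fell into 3 levels, with npr1-1+INA between Col and the others, and the ratio of Col+INA to Col was 5.84 (4.39 to 7.90).

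The MAPKKs of the MPK4 branch were near the limit of the depth. MKK2 (chromosome 4, 14593039 to 14595292, minus strand) had 3 reads for Col, 36 for Col+INA, 10 for npr1-1+INA and 25 for hac1/5+INA, and Col+INA exceeded Col by 11.6-fold (3.67 to 59.0). MKK1 (chromosome 4, 13217685 to 13219862, plus strand) had 0, 5, 2 and 11 reads. A count of 0 allows up to 3 reads. The 95% interval of the ratio of MKK1 in Col+INA to Col had a lower limit of 0.887 and no upper limit, with an FDR of 0.139 in the exact binomial test, so a difference was not detectable at this depth. MKK1, MKK2 and MPK11 were the members with more than 1 listed gene model, each having 2, and their less read models held at most 6 reads per library. The same held across the tables: genes with more than 1 listed gene model had a median of 36 reads on their most read model over the 4 libraries, against 202 reads for genes with 1. The part of this in the low counts of MKK1, MKK2 and MPK11 was not tested.

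Of the terminal kinases, MPK3 (chromosome 3, 16756770 to 16758698, plus strand, 6 coding exons) had 727 reads for Col, 2054 for Col+INA, 488 for npr1-1+INA and 2223 for hac1/5+INA. MPK6 (chromosome 2, 18138307 to 18140988, plus strand, 6 coding exons), which shares most substrates with MPK3, had 621, 1312, 513 and 966 reads. Col+INA was the highest library for MPK6 and hac1/5+INA for MPK3. Col+INA exceeded Col by 2.74-fold (2.51 to 2.98) for MPK3 and by 2.05-fold (1.86 to 2.25) for MPK6. MPK4 (chromosome 4, 567095 to 569088, plus strand, 6 coding exons), which restrains SA accumulation, had 496 reads for Col, 1665 for Col+INA, 713 for npr1-1+INA and 1998 for hac1/5+INA, a ratio of Col+INA to Col of 3.25 (2.94 to 3.60). Its nearest relative MPK11 (chromosome 1, 202136 to 204189, plus strand, 6 coding exons) had 1 read for Col, 30 for Col+INA, 1 for npr1-1+INA and 18 for hac1/5+INA. MPK11 thus had nearly all of its reads from Col+INA and hac1/5+INA, and the ratio of Col+INA to Col was 29.1 with a wide interval (4.83 to 1185). Among 14325 genes with a mean of at least 10 reads, the ratios of 9 cascade genes lay above those of 78.7% (MPK6) to 98.4% (MPK11) of genes. MPK11 and MKK2, with 1 and 3 reads in Col, reached that mean only through Col+INA, so the filter favors high positions for them. Below them, the highest position was that of MKK9 at 94.1%.

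**Figure D3:**
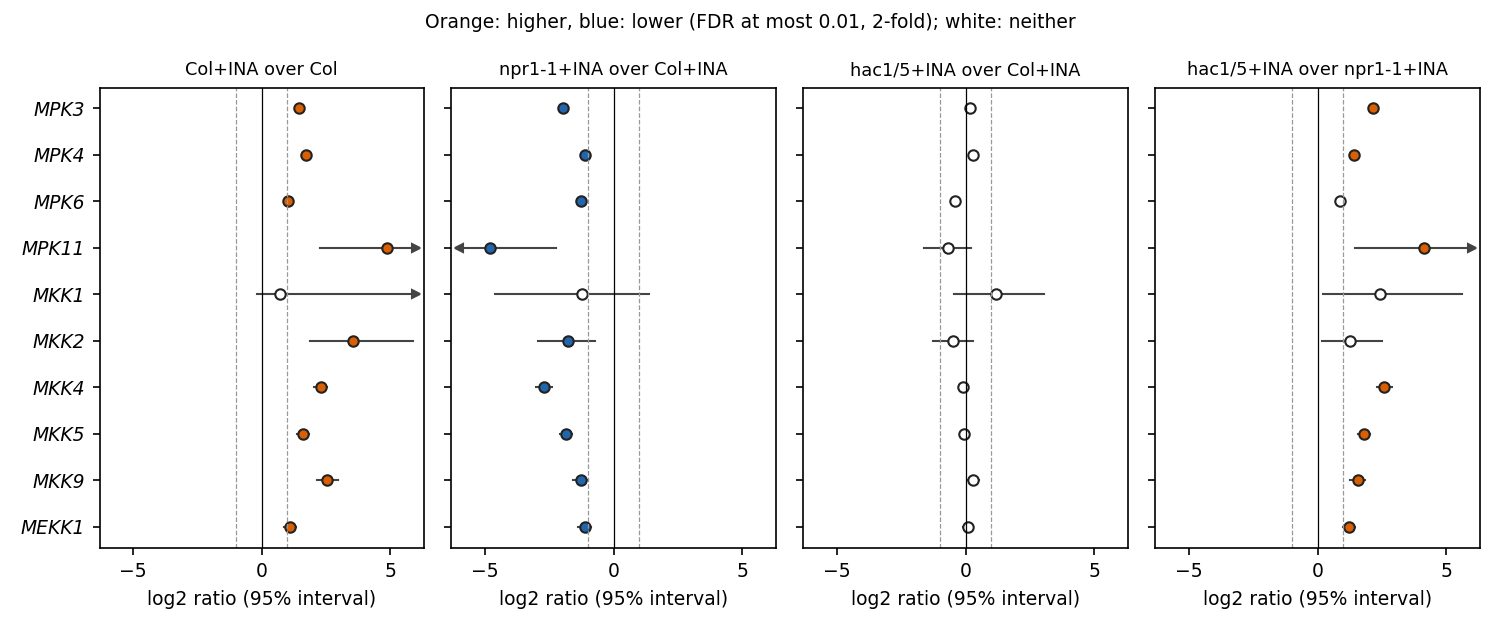
Log2 ratio of reads per library for each cascade gene in 4 comparisons, with 95% counting intervals (bars, arrows where they pass the axis), dashed lines at a 2-fold difference, and MKK1 drawn with 3 reads where Col had 0. In the panel of Col+INA over Col 9 genes are orange (higher), in that of npr1-1+INA over Col+INA 9 are blue (lower), in that of hac1/5+INA over Col+INA all 10 are white, and in that of hac1/5+INA over npr1-1+INA 7 are orange.

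The dependence of these levels on NPR1 was examined in npr1-1+INA against Col+INA. Again 9 of the 10 genes were called, now as lower in npr1-1+INA, and 0 as higher. Of all 21234 genes tested, 13.1% were called lower and 10.7% higher. edgeR's exact test called 4 of the 10 lower with an assumed coefficient of variation of 0.2 and 0 with 0.4. Of all 21234 genes it called 1527 lower with 0.2 and 321 with 0.4. This comparison shares the Col+INA library with the preceding one, so a count that is high in that library enters both. The median log2 ratio was -1.51 over the 10 genes and -0.01 over all genes. MKK4 was 6.47-fold lower (ratio 0.154, 0.125 to 0.189), MPK3 3.94-fold lower (0.253, 0.229 to 0.280) and MKK5 3.60-fold lower (0.278, 0.234 to 0.329). The called genes nearest the threshold were MEKK1, 2.19-fold lower (0.458, 0.386 to 0.541), and MPK4, 2.19-fold lower (0.457, 0.418 to 0.499). MPK6 was 2.40-fold lower (0.417, 0.376 to 0.462) and MKK9 2.42-fold lower (0.414, 0.335 to 0.507). The low-count genes MPK11, 28.1-fold lower (0.0356, 8.72e-04 to 0.214), and MKK2, 3.37-fold lower (0.296, 0.131 to 0.610), were called as well. MKK1, with 2 against 5 reads, gave a ratio of 0.427 (0.0406 to 2.61) and an FDR of 0.667 in the exact binomial test.

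Set against water-treated Col instead, npr1-1+INA held 1 gene called higher, MKK9, and 0 called lower, where 3.77% of all 20869 genes tested were called higher and 1.77% lower. MKK9 was 2.42-fold (1.75 to 3.37) above Col in npr1-1+INA. The call was lost in edgeR's exact test with an assumed coefficient of variation of 0.2 or 0.4, where 0 cascade genes were called. Of all 20869 genes, that test called 140 higher with 0.2 and 14 with 0.4. At an FDR of 0.2 the exact binomial test called 2 cascade genes higher, and 1297 of all genes. MPK4 had a ratio of 1.49 (1.32 to 1.67) and MPK3 of 0.694 (0.617 to 0.779), opposite directions that both exceeded counting error and both stayed under 2-fold. MKK4 (0.752, 0.581 to 0.971) and MPK6 (0.854, 0.758 to 0.961) had ratios below 1, whereas the intervals of MKK5 (0.840, 0.684 to 1.03), MEKK1 (0.970, 0.795 to 1.18) and MKK2 (3.44, 0.887 to 19.5) included 1. With DESeq2's size factors the interval of MKK5 (0.637 to 0.961) lay below 1. Those of MEKK1 (0.741 to 1.10) and MKK2 (0.827 to 18.2) still included 1. Genotype and treatment both differ between these libraries.

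In hac1/5+INA against Col+INA, 0 of the 10 genes were called higher and 0 lower by the exact binomial test, while 3.81% of all 20985 genes tested were called higher and 5.79% lower. At an unadjusted p below 0.05, 3 genes had more reads and 1 had fewer. edgeR's exact test with an assumed coefficient of variation of 0.2, which adds variation to the same counts, gave 0 in either direction. Of all 20985 genes it called 107 higher and 490 lower. MPK4 had a ratio of 1.23 (1.16 to 1.32), MPK3 of 1.11 (1.05 to 1.18) and MKK9 of 1.22 (1.06 to 1.42), and MPK6 of 0.758 (0.697 to 0.824). With DESeq2's size factors the intervals of MPK3 (0.966 to 1.09) and MKK9 (0.974 to 1.31) included 1, and those of MPK4 (1.07 to 1.22) and MPK6 (0.642 to 0.759) did not. The intervals of MKK4 (0.933, 0.839 to 1.04), MKK5 (0.971, 0.869 to 1.08) and MEKK1 (1.07, 0.937 to 1.21) included 1. With the same size factors the intervals of MKK4 (0.773 to 0.956) and MKK5 (0.801 to 0.999) lay below 1, and MEKK1 changed sides to a ratio of 0.983 (0.864 to 1.12). For the genes with few reads the intervals were wide: 0.324 to 1.14 for MPK11 (ratio 0.617), 0.411 to 1.22 for MKK2 (0.715) and 0.725 to 8.31 for MKK1 (2.26). Among 14333 genes with a mean of at least 10 reads, the ratios of the cascade genes other than MKK1 lay above those of 13.5% (MPK11) to 62.6% (MPK4). For comparison, PR1, the SA marker gene, had 4 reads for Col, 16158 for Col+INA, 2 for npr1-1+INA and 96 for hac1/5+INA.

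**Figure D4:**
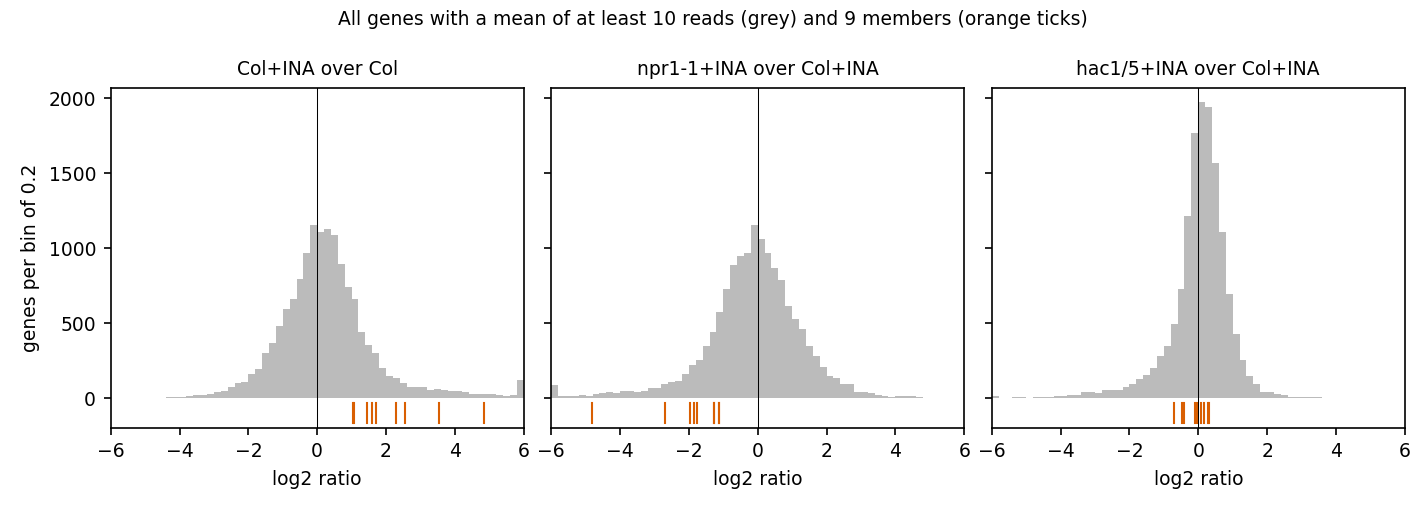
Number of genes per bin of the log2 ratio for all genes with a mean of at least 10 reads (grey bars, with the outermost bars holding all values beyond the axis) and the log2 ratios of the 9 cascade genes other than MKK1 (orange ticks), in 3 comparisons that share the Col+INA library. The ticks lie on the right flank for Col+INA over Col (1.03 to 4.86) and on the left flank for npr1-1+INA over Col+INA (-4.81 to -1.13). For hac1/5+INA over Col+INA they reach from left of the peak to the peak (-0.70 to 0.30). MPK11 reaches the mean of 10 reads only through Col+INA in the comparisons with Col and npr1-1+INA, as does MKK2 in that with Col.

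The libraries of the INA-treated mutants were also set against each other. In hac1/5+INA, 7 of the 10 genes were called higher than in npr1-1+INA and 0 lower. Of all 21156 genes tested, 14.6% were called higher, and 2343 genes were called lower. With an assumed coefficient of variation of 0.2, edgeR's exact test called 6 of the 10 higher, and with 0.4 it called 0. Of all genes it called 1660 higher with 0.2 and 282 with 0.4. Among genes with a mean of at least 10 reads, the exact binomial test called 6 members higher, and 3015 of 14505 genes. MKK4 was 6.04-fold (4.92 to 7.48), MPK3 4.39-fold (3.98 to 4.86), MKK5 3.49-fold (2.95 to 4.15), MKK9 2.96-fold (2.42 to 3.63), MPK4 2.70-fold (2.48 to 2.95) and MEKK1 2.33-fold (1.97 to 2.76) higher. MPK11, with 18 reads against 1, had a ratio of 17.4 (2.74 to 723). The genes not called were MPK6, 1.82-fold (1.63 to 2.03), MKK2, 2.41-fold (1.12 to 5.63), and MKK1, 5.31-fold (1.16 to 49.3). Against water-treated Col, hac1/5+INA had 9 genes called higher (16.0% of all 21029 genes tested), with MPK6 at 1.55-fold (1.40 to 1.72) as the gene that was not called, and 8 with either scaling alternative, where MEKK1 at 2.26-fold (1.92 to 2.67) fell under 2-fold. With an assumed coefficient of variation of 0.2, edgeR's exact test called 7 of the 10 higher than in Col, and with 0.4 it called 0. Of all genes it called 1790 higher with 0.2 and 374 with 0.4. Among genes with a mean of at least 10 reads, which leaves out MKK1 and MPK11, the exact binomial test called 7 members higher, and 3289 of 14338 genes. MKK2, with 25 reads against 3, reached that mean only through hac1/5+INA. The largest ratios with at least 50 reads in each library were those of MKK9 at 7.15-fold (5.40 to 9.64), MKK4 at 4.54-fold (3.79 to 5.47) and MPK4 at 4.01-fold (3.64 to 4.44), and MKK1, with 11 reads against 0, had a ratio with a lower limit of 2.50.

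To see whether the promoters share a motif that the choice of genes did not use, the 250 bases before each deposited gene start were searched on both strands for TTGAC, the core of the W-box bound by WRKY factors, and TGACG, the core bound by the TGA factors that recruit NPR1. Matches may overlap, as TTGACG holds both. Of the 10 genes, 6 held TTGAC and 5 held it at least 2 times, while 44.8% of 22038 promoters held it and 13.9% at least 2 times. TGACG stood in 1 of the 10, MPK3, and in 21.3% of all promoters. The promoters of MPK3 (chr3:16756520-16756769, plus strand) and MPK4 (chr4:566845-567094, plus strand) are shown as examples with matches (capitals), and that of MKK4 (chr1:19154073-19154322, plus strand) as an example of a strongly changed gene with neither motif in this window.
MPK3: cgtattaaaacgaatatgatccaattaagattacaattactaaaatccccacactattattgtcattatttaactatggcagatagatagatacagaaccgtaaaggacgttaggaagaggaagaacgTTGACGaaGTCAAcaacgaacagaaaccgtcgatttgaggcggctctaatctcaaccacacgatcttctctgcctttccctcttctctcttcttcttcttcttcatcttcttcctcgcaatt
MPK4: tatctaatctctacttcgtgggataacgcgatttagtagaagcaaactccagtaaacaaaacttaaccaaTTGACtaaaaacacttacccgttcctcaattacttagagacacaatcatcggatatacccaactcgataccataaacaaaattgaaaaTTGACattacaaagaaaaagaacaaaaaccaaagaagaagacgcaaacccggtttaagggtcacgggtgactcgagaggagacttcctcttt
MKK4: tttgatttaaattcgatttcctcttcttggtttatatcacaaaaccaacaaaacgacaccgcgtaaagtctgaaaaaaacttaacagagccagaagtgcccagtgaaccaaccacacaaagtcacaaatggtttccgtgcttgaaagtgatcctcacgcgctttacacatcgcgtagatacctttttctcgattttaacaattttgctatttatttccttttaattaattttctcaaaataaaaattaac
In MPK3, TTGAC begins 122 bases before the start and overlaps TGACG, and its reverse complement begins at 114 bases. A match is a description of the letters and not of a binding site.

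The rest of the pathway was read from lists of related genes. Their counts stand beside shares over all genes of 13.9% called higher and 8.49% lower in Col+INA against Col, and of 10.7% higher and 13.1% lower in npr1-1+INA against Col+INA. In hac1/5+INA against Col+INA, the shares were 3.81% higher and 5.79% lower. There, 1382 of all 20985 genes were called lower with TMM factors and 1405 with DESeq2's size factors. Of 16 other MAPKs, 15 had reads in Col or Col+INA, and 1 was called higher and 2 lower in Col+INA, with a median log2 ratio of -0.04. MPK7, a group C MAPK, had 42 reads for Col, 161 for Col+INA, 66 for npr1-1+INA and 198 for hac1/5+INA, 3.71-fold (2.63 to 5.35) above Col in Col+INA. The group D MAPKs MPK18 (1522, 691, 1115 and 963 reads) and MPK19 (1044, 517, 480 and 642 reads) were 2.27-fold and 2.09-fold lower in Col+INA. In npr1-1+INA against Col+INA, MPK7 was called lower and MPK10, chosen after its values were seen, higher, with 32 against 2 reads. In hac1/5+INA against Col+INA, 0 of these 16 were called. Of the other MAPKKs 3 had reads, and 0 of them were called in any of these 3 comparisons.

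Among 11 other MAPKKKs, 3 were called higher and 0 lower in Col+INA against Col, with a median of -0.05. These were MEKK3 and MEKK2, given above, and MAPKKK5, which links the chitin receptor to MKK4 and MKK5, with 425 reads for Col, 1400 for Col+INA, 337 for npr1-1+INA and 724 for hac1/5+INA. For MAPKKK5 Col+INA was 3.19-fold (2.86 to 3.56) above Col, and with DESeq2's size factors 2 MAPKKKs stayed called. Against Col+INA, 2 were called lower in npr1-1+INA (MEKK3 and MAPKKK5), and 1 in hac1/5+INA, MAPKKK18, chosen after its values were seen (12 against 44 reads), and 3 with either scaling alternative.

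Of the MAPK phosphatases with reads in Col or Col+INA, 1 of 7 was called higher in Col+INA and 0 lower, a share near the 13.9% over all genes, with a median of 1.12. AP2C1, which dephosphorylates MPK4 and MPK6, had 60 reads for Col, 199 for Col+INA, 38 for npr1-1+INA and 102 for hac1/5+INA, 3.21-fold (2.40 to 4.36) higher in Col+INA. Against Col+INA, 3 of 8 were called lower in npr1-1+INA: AP2C1 and, chosen after their values were seen, MKP1 (872 against 323 reads) and IBR5 (32 against 10 reads). In hac1/5+INA 1 was called higher, AP2C4, chosen in the same way (78 against 19 reads), while 1 was lower with either scaling alternative.

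Of 13 substrates and outputs of the cascades, 6 were called higher in Col+INA and 0 lower, with a median of 2.24. FRK1, a receptor-like kinase gene used as a marker of pattern-triggered signaling, had 1 read for Col, 114 for Col+INA, 2 for npr1-1+INA and 273 for hac1/5+INA, a ratio of Col+INA to Col of 110 (19.4 to 4398). WRKY25, whose product binds the MPK4 substrate MKS1, had 56, 566, 42 and 736 reads (9.79-fold, 7.43 to 13.1). WRKY33, the MPK3 and MPK6 substrate that drives camalexin genes, had 198, 1501, 170 and 2744 reads (7.34-fold, 6.33 to 8.56). ERF104, an ethylene response factor phosphorylated by MPK6, had 12, 91, 17 and 118 reads (7.34-fold, 4.01 to 14.7). The outputs WRKY22 (64, 77, 64 and 48 reads) and WRKY29 (7, 15, 26 and 30 reads), chosen after their values were seen, were not called in Col+INA against Col. Against Col+INA, 6 of the 13 were called lower in npr1-1+INA and 0 higher. In hac1/5+INA 2 were called higher and 0 lower, FRK1 at 2.46-fold (1.97 to 3.09) and, chosen after its values were seen, the ethylene synthesis gene ACS6 at 2.98-fold (2.65 to 3.35), with 1099 against 380 reads.

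Of the guard pair, 1 gene was called. CRCK3, the receptor-like kinase that SUMM2 watches, had 185 reads for Col, 681 for Col+INA, 212 for npr1-1+INA and 828 for hac1/5+INA, 3.56-fold (3.03 to 4.22) above Col in Col+INA. SUMM2 itself had 180, 105, 162 and 94 reads, a ratio of 0.565 (0.440 to 0.723) that did not pass 2-fold. CRCK3 was called lower for npr1-1+INA against Col+INA, and neither gene was called in hac1/5+INA against Col+INA. Of 5 upstream kinases and scaffolds, BIK1, the cytoplasmic kinase beneath pattern receptors, was the 1 called higher in Col+INA (82, 223, 110 and 232 reads, 2.63-fold, 2.04 to 3.44). RACK1C, a scaffold of MEKK1, MKK4, MKK5, MPK3 and MPK6 that was chosen after its values were seen, was the 1 called in npr1-1+INA against Col+INA, where it was higher (457 against 233 reads).

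**Figure D5:**
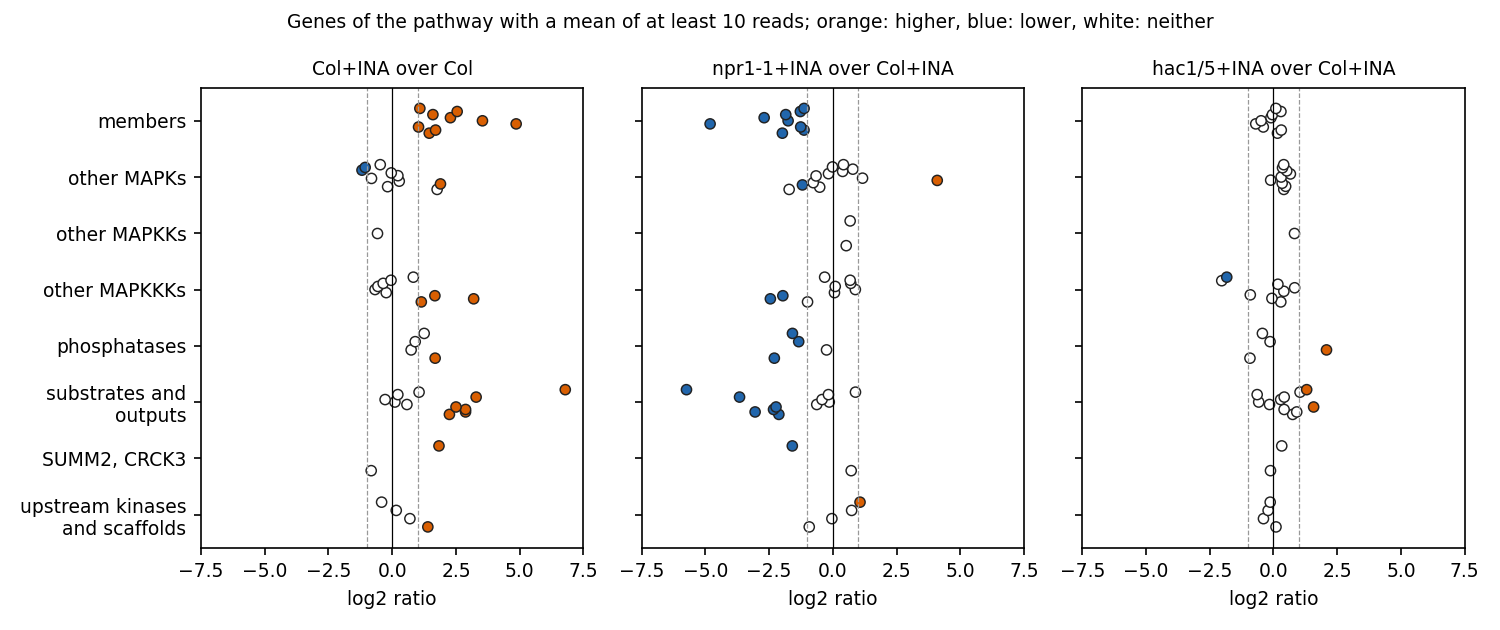
Log2 ratios of single genes in the cascade (members) and in 7 lists of related genes, for genes with a mean of at least 10 reads over both libraries, in 3 comparisons that share the Col+INA library. All 9 plotted members lie past 2-fold in the left and middle panels, as do the 6 substrates and outputs that were called, whereas the other MAPKs spread over both sides of 0.

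Over the 4 libraries, MPK11 (range 4.86), MKK2 (3.54) and MKK9 (2.84) spanned the widest ranges of log2 reads scaled to the library sum, and MPK6 (1.26) and MEKK1 (1.22) the narrowest. For the widest ones, the genes of most similar pattern were sought among 9959 genes with a mean of at least 50 reads, by the Euclidean distance of the log2 ratios of Col, npr1-1+INA and hac1/5+INA to Col+INA. For MPK11 they were NAC036 (distance 0.31), ZF1 (0.36) and TRX5 (0.41), and NAC036 had 53, 1646, 57 and 801 reads. For MKK2 they were AT1G24147 (0.24), AT2G25510 (0.43) and BIP1 (0.46), and BIP1, an endoplasmic reticulum chaperone, had 694, 6597, 1901 and 3709 reads. For MKK9 they were AT3G61540 (0.32), HIP1 (0.33) and ARO4 (0.36), and HIP1 had 466, 2243, 848 and 2555 reads. The likeness rests on 4 libraries that are shared by all genes and, for MPK11 and MKK2, on few reads.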

How the data were processed

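Leaf RNA of 6 conditions was sequenced by the authors on an Illumina HiSeq instrument, with RNA of 3 experiments combined per library. Reads were aligned with SOAPaligner/soap2, allowing at most 2 mismatches. The genome build in the submitters' processing notes is TAIR10, and the annotation version and read length are not given in the sources used here. The authors deposited 3 tables of library pairs holding raw read counts per gene model and RPKM, scaled by gene length and by the sum of these counts. Recomputed RPKM differed by at most 5.8e-08 on the log2 scale, and an RPKM of 0 was written as 0.001. The deposited log2 ratios, p-values and FDR of the authors' own comparisons, and the gene ontology columns, were not used. Columns of samples outside the series numbered 0.

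Joining the tables gave 25931 gene models. The Col+INA column, present in all 3 tables, was identical (largest difference 0). Libraries summed to 6920927 reads on gene models for Col, 7146973 for Col+INA, 6698569 for npr1-1+INA and 6944614 for hac1/5+INA. The gene model with the most reads stands for a gene. Each gene model with a read in either library was given a two-sided exact binomial p, adjusted by Benjamini-Hochberg. Calls needed an FDR no higher than 0.01 and a log2 ratio of 1 or more in size, the thresholds in the study's methods. Without replicates, edgeR's quasi-likelihood test could not be used. A count of 0 was set to 3 reads in ratios. The code of the test was checked on simulated counts. These held counting error only, as the test assumes, so they say nothing of variation between libraries.

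All 10 cascade genes are named, and from each list the genes called in Col+INA over Col, at most the 4 with the largest log2 ratio. For the 3 members of widest range, the 3 genes nearest in pattern are named. Members and lists were chosen with earlier results of these data known. Alternatives were TMM factors, DESeq2 size factors, edgeR's exact test with an assumed coefficient of variation of 0.2 or 0.4, an FDR of 0.2, a 1.5-fold threshold, reads summed over gene models, log2(RPKM + 1) and a mean of at least 10 reads. Sequences were read from TAIR10.1 (RefSeq) at the deposited coordinates. Of 25005 gene models with a transcript of the same locus in TAIR10.1, 26.6% had identical start and end (25.2 to 29% by chromosome), and the coding sequences of all 10 members lay inside their deposited spans. None of the 10 members (0) matched at both ends, so the promoter windows hang on the deposited starts. The tools were R 4.3.3 with DESeq2 1.42.0 and edgeR 4.0.16, and Python 3.11.15 with SciPy 1.17.1, pandas 2.3.3, numpy 2.4.6 and matplotlib 3.10.9.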

Additional observations from a re-analysis of the deposited data

How the results depend on the processing

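No paired analysis was possible because each condition has 1 library and no replicate could be left out. Of the counts of cascade genes called under an alternative, 45 had a reported count above 0, and 37 of these stayed within 1.5 times of it. At an assumed coefficient of variation of 0.4, edgeR's exact test called 0 cascade genes in the comparisons with a reported count above 0. These were Col+INA over Col, npr1-1+INA over Col+INA, npr1-1+INA over Col, hac1/5+INA over Col and hac1/5+INA over npr1-1+INA. Over all genes, that test called 403 higher, 321 lower, 14 higher, 374 higher and 282 higher in these comparisons, in the same order. At 0.2, 4 cascade genes were called lower in npr1-1+INA over Col+INA and 0 higher in npr1-1+INA over Col, where an FDR of 0.2 gave 2. Of 180 log2 ratios of single members, 174 kept their side of the threshold, and the others fell under 2-fold with TMM factors and with DESeq2 size factors: MPK6 (0.89 and 0.88) and MEKK1 (0.95 and 0.93) in Col+INA over Col, and MEKK1 (0.93 and 0.90) in hac1/5+INA over Col. No call changed direction. Over genes with a mean of at least 10 reads the median log2 ratio was 0.18 in Col+INA over Col, -0.07 in npr1-1+INA over Col+INA 0.13 in hac1/5+INA over Col+INA, 0.33 in hac1/5+INA over Col and 0.19 in hac1/5+INA over npr1-1+INA, shifts to which each log2 ratio should be read as relative. With TMM factors it became 0.04, -0.02, 0.02, 0.08 and 0.03. Over all genes, Col+INA over Col had 2939 higher and 1791 lower, against 2485 and 2195 with TMM factors, 2432 and 2257 with DESeq2 size factors, and 1609 and 715 or 403 and 29 at coefficients of 0.2 or 0.4. hac1/5+INA over Col+INA had 800 higher and 1215 lower, against 591 and 1382 with TMM factors, and hac1/5+INA over Col 3363 and 2019 against 2509 and 2594. Why these counts moved was not tested beyond the construction of each alternative.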
